A study of Mus musculus with 16 samples.

Results

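The Lrig1 locus held the longest stretch of H3K27ac in the adult intestinal stem cells of this series. The locus was taken as every called H3K27ac peak that overlapped chr6:94540000-94680000 on the mouse build mm9. The gene lies on the minus strand near 94554000 to 94650000, so it starts near 94650000 and upstream positions have higher numbers. This rule gave 139 peaks of 369142 in the 8 peak lists. The locus was selected on the length of its peaks in the stem cells, since the longest peak of both stem-cell lists lies there. Its values in stem cells are therefore a description, without a test.

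H3K27ac, an acetylated lysine of histone H3, was mapped by ChIP-seq (chromatin immunoprecipitation with sequencing) in small-intestinal epithelium of mice of mixed C57BL/6 CD1 background. Of the 4 groups, with 2 libraries each, the first was EpCAM+ CD31- CD45- epithelium of embryos at day E12.5 (days after conception) and the next the same gate at E14.5. The others were Lgr5-positive intestinal stem cells (ISC), sorted for high GFP, and enterocytes, sorted as EpCAM+ CD31- CD45-, both from postnatal day 60. All adult mice, those that gave enterocytes included, were males with the Lgr5EGFP-Cre-ERT allele, in which GFP follows the Lgr5 gene. The genotype and sex of the embryos, and whether animals were pooled, are not given in the sources used here. EpCAM is shared by epithelial cells, so this gate does not by itself separate enterocytes from other villus epithelium. The cell types were not checked against marker genes, since the gene table used here is on the build GRCm38.p6 and the peaks are on mm9.

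Lrig1 encodes a transmembrane protein with leucine-rich repeats and immunoglobulin-like domains that restrains signalling by the ErbB receptors, the family of the epidermal growth factor receptor. ErbB ligands drive proliferation in the intestinal crypt, and Lrig1 is known as a gene of crypt stem and progenitor cells. H3K27ac marks active promoters and enhancers, and long unbroken stretches of it are often found at genes that are highly active in a given cell type.

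The promoter of Lrig1 is shown because a peak covered position 94650000, the approximate start of the gene, in all 8 libraries. It is taken from RefSeq (GRCm38.p6) and reads 5′ to 3′ on the strand of the gene, from 250 bases before to 50 bases after the start. Capitals mark the matches to GGGCGG, the core of the GC box, and to CCAAT.
Lrig1 promoter: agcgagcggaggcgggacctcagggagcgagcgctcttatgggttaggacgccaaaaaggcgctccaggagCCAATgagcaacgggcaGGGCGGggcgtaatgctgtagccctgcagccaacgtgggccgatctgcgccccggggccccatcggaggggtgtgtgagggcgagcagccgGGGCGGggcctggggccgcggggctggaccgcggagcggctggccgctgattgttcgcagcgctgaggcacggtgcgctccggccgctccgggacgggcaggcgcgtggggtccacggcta
This promoter is rich in CpG dinucleotides, with 35 of them and a GC content of 73%. The medians over 32851 promoters of the same length in the table were 7 CpG and 52.7% GC. With both strands searched, GGGCGG had 2 matches and CCAAT 1 match, all on the strand shown. Of all promoters, 35.7% and 37.4% held these motifs on either strand. TATAAA had 0 matches (13.6% of promoters held it). ATCAAAG, a sequence bound by the Wnt effectors of the TCF family, also had 0 matches (3.73% of promoters). In the same table Slc25a26, a mitochondrial carrier gene, overlapped the far end of Lrig1 by 131 bp, the microRNA gene Mir7041 lay within Lrig1, and the nearest protein-coding gene on the upstream side, Kbtbd8, was 418 kb away.

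Depth ranged from 34.6 to 54.6 M ChIP tags, and the lists held 35614 to 52510 peaks. The enterocyte libraries covered the least of the genome with peaks, 38.8 Mb each, and ISC replicate 2 covered the most, 76.1 Mb against 51.2 Mb in ISC replicate 1. E14.5 replicate 2 was sequenced the deepest. A longer covered length can come, among other sources, from more cells with the mark or from more of the mark per cell. These bulk samples cannot tell the sources apart. The series calls the libraries of a group biological duplicates, and the p-values below measure the spread between them.

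Peaks covered far more of the locus in ISC than in the other groups. The covered length was 72.7 and 85.6 kb of the window of 140 kb in the ISC libraries. It was 33.6 and 28.2 kb in the E14.5 libraries, 10.1 and 14.8 kb in the E12.5 libraries, and 4.63 and 13.4 kb in the enterocyte libraries. Both ISC libraries stood above every other library, and both E14.5 libraries stood above those of E12.5 and of enterocytes. The E12.5 and enterocyte libraries overlapped, so their order was not resolved. As mean ± SD of 2 libraries, ISC had 79.1 ± 9.13 kb, E14.5 had 30.9 ± 3.79 kb, E12.5 had 12.48 ± 3.35 kb and enterocytes had 9.01 ± 6.20 kb. The ISC mean was 2.56 times that of E14.5, 6.34 times that of E12.5 and 8.79 times that of enterocytes. When covered lengths were scaled to the same total per library, these ratios were 2.51, 5.31 and 5.48. The ratio to enterocytes rested on which enterocyte library was used, since it was 5.91 without replicate 1 and 17.1 without replicate 2.

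**Figure D1:**
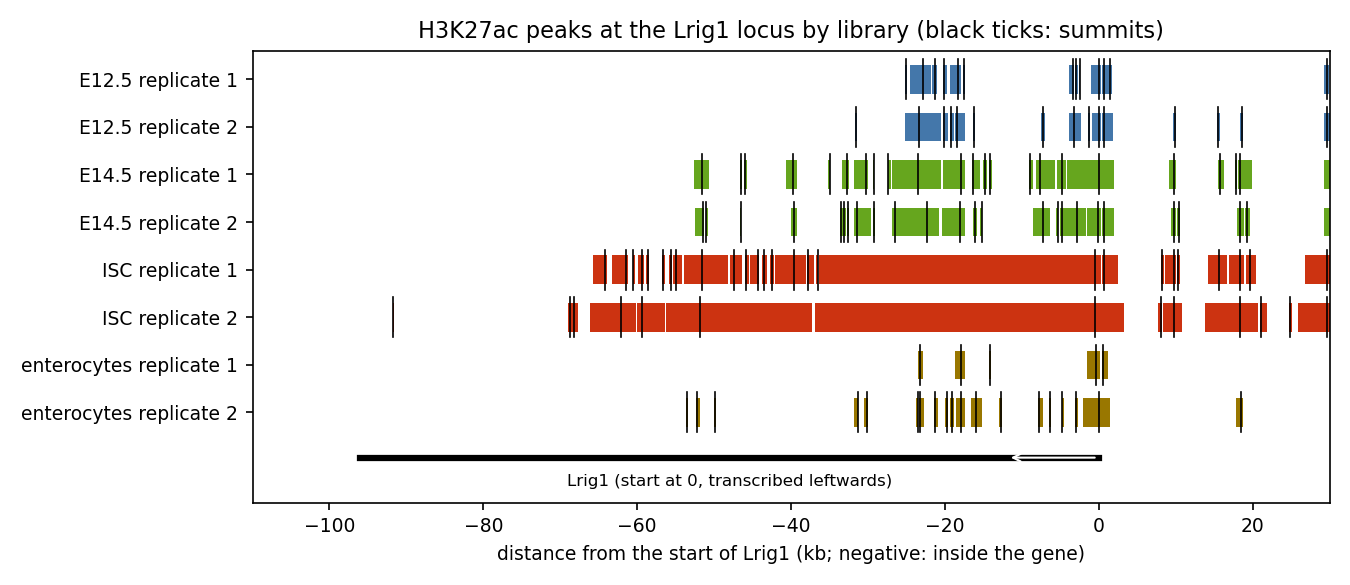
H3K27ac peaks of the 8 libraries (coloured bars, 1 row per library) against the distance from the start of Lrig1 in kb, with the peak summits as black ticks and the gene as a black line. The ISC rows are filled by peaks of 36.5 and 40.2 kb that cover the start of the gene and run into it, where the other rows show separate shorter peaks.

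In both ISC lists the longest peak of the genome lay over the start of Lrig1 and ran into the gene. It was 36.5 kb long in replicate 1 (chr6:94613674-94650220) and 40.2 kb in replicate 2 (chr6:94613096-94653292). The edges inside the gene lay 578 bp apart, and the upstream edges 3072 bp apart. The peak just outside the rule, the next longest of each ISC list, was 27.01 kb on chromosome 11 in replicate 1 and 39.0 kb on chromosome 7 in replicate 2. In replicate 2 the lead over the next peak was thus small, and that list also held 342 peaks of at least 10 kb against 85 in replicate 1.

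Elsewhere the longest peak of the locus was much shorter. It measured 1.76 and 3.45 kb in enterocytes, 2.74 and 4.68 kb in the E12.5 libraries, and 6.39 and 5.49 kb in those of E14.5. The E14.5 libraries did not overlap with those of either other group, while the E12.5 and enterocyte libraries did overlap. As mean ± SD of 2 libraries, ISC had 38.4 ± 2.58 kb, E14.5 had 5.94 ± 0.637 kb, E12.5 had 3.71 ± 1.37 kb and enterocytes had 2.60 ± 1.19 kb. Within their own lists these peaks ranked 543rd and 579th at E14.5, 2143rd and 1040th at E12.5, and 5906th and 1470th in enterocytes. In the embryonic libraries the longest peak lay deep in the gene, over 94623148 to 94629535 at its widest, whereas in enterocytes it lay at the start of the gene. When nearby peaks were joined (below), this differed in E14.5 replicate 2 and enterocyte replicate 2.

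**Figure D2:**
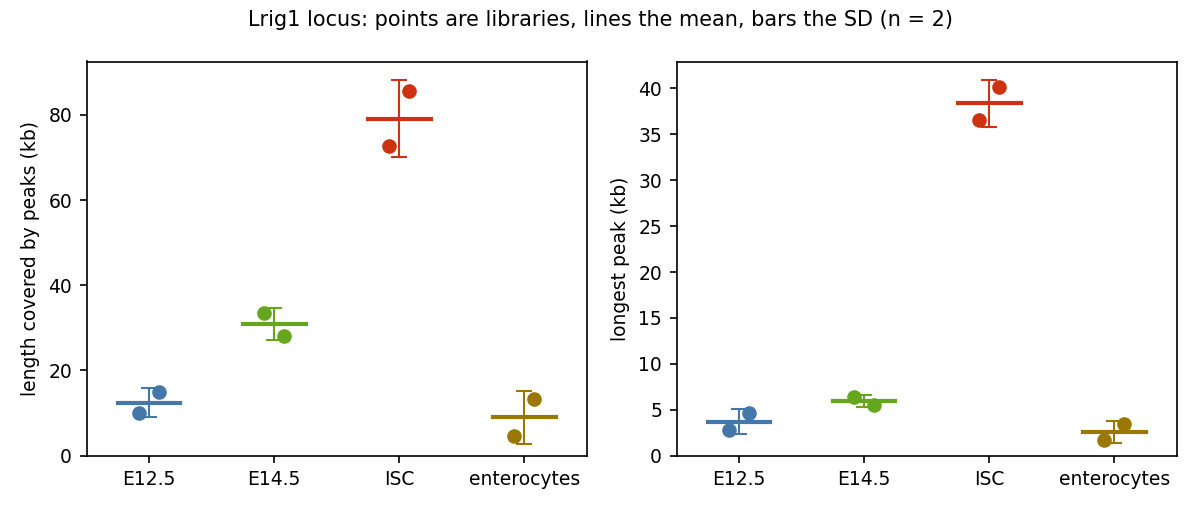
Length covered by peaks (left, kb) and longest peak (right, kb) at the Lrig1 locus for the 4 groups, with libraries as points, the mean as a line and the SD as a bar (n = 2). The ISC libraries lie at 72.7 and 85.6 kb covered, and no library of another group exceeds 33.6 kb.

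Narrow peak calling splits a stretch wherever the signal dips, so neighbouring peaks were also joined across gaps of up to 1 kb. The joined stretch at Lrig1 then reached 59.3 kb in ISC replicate 1 and 69.4 kb in replicate 2, and it was still the longest of each ISC list. Joining gave 2.79 and 6.19 kb in enterocytes, 7.73 and 7.72 kb in the E12.5 libraries, and 13.5 and 10.6 kb in those of E14.5. Both ISC libraries thus also exceeded all others after joining. The longest stretch of E14.5 replicate 2 then lay over the start of the gene (chr6:94641409-94651996). That of enterocyte replicate 2 lay inside the gene (chr6:94628605-94634795). In the other embryonic and enterocyte libraries its place was as before. In ISC replicate 2 the locus also held a second long peak of 19.0 kb (chr6:94593775-94612747) next to the first, where replicate 1 had 10 peaks of at most 5.72 kb.

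**Figure D3:**
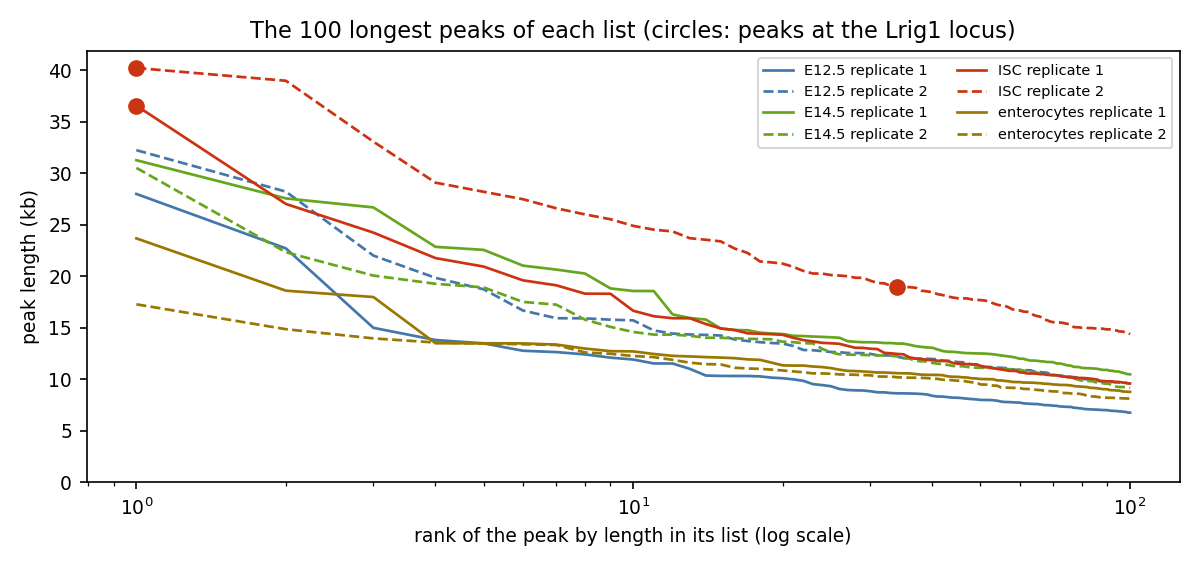
Length in kb of the 100 longest peaks of each list against their rank (log scale), with circles on those at the Lrig1 locus. The ISC lists have Lrig1 at rank 1 with 36.5 and 40.2 kb, and no list of another group has a peak of the locus among its 100 longest.

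The locus ranked high in ISC by total covered length too, but that total includes the long peaks by which the locus was chosen. Among windows of the same length stepped by 20 kb and not overlapping the locus, 0 had a greater covered length in ISC replicate 1 and 6 in replicate 2. At E14.5, 1197 and 1428 windows lay ahead of it, at E12.5 8135 and 7062, and in enterocytes 18446 and 5436. Of the windows with any peak, the locus stood at the 98.2nd and 97.8th percentile at E14.5 and at the 86.9th and 89.4th at E12.5. The enterocyte replicates placed it far apart, at the 60.4th and 88.8th percentile.

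The best peak stood highest in ISC and next at E14.5, as ranked within each list by the −log10 q that the authors' peak caller gave. That peak stood at rank 100 and 51 in the ISC lists, at 1923 and 1595 in the E14.5 lists, at 4508 and 7924 in the E12.5 lists, and at 12315 and 3885 in the enterocyte lists. The −log10 q itself does not compare between lists. It was 180 and 237 in ISC, 143 and 110 at E14.5, 51.2 and 52.6 at E12.5, and 23.8 and 83.5 in enterocytes. In every library the strongest peak of the locus was the one over or next to the approximate start of the gene.

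The stretch shared by both ISC domains, chr6:94613674-94650220, was present in the embryo in pieces. In the E14.5 libraries 14 and 15 peaks covered 63.9% and 56.7% of it, and in the E12.5 libraries 10 and 10 peaks covered 22.4% and 31.0%. In enterocytes 4 and 15 peaks covered 10.4% and 27.7%. The longest part of it without a peak was 12.9 and 6.24 kb in enterocytes, 13.5 and 8.51 kb in the E12.5 libraries, and 4.84 and 6.55 kb in those of E14.5. Coverage of the ISC domain at E14.5 was thus above that of all E12.5 and enterocyte libraries.

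Nearly all bases marked in the embryonic and enterocyte libraries were also marked in ISC. Peaks of both E12.5 libraries shared 9876 bp, of which 9797 bp were in both E14.5 libraries and also in both ISC libraries. Peaks of both E14.5 libraries shared 25758 bp, of which 25555 bp were in both ISC libraries. Both enterocyte libraries shared 4251 bp, all of them in both ISC libraries but only 3254 bp in both E12.5 libraries. Of the 37241 bp with a peak in any embryonic or enterocyte library, 36730 bp were in both ISC libraries and 0 bp in neither. Peaks of both ISC libraries covered 51.7% of the window, so much of this overlap comes with their length. Of the 72.4 kb covered in both ISC libraries, 35.6 kb (49.2%) had no peak in any other library, and 35.3% were covered in both E14.5 libraries.

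The enterocyte replicates differed most at the locus. The bases in both libraries, as a fraction of those in either, came to 0.309 in enterocytes, 0.655 for E12.5 and 0.715 for E14.5. The ISC value of 0.842 goes with the choice of the locus and the length of their peaks. Enterocyte replicate 1 had 5 peaks at the locus and replicate 2 had 19. Of the covered bases of replicate 1, 91.9% were also covered in replicate 2, and of those of replicate 2, 31.7% were in replicate 1. Replicate 1 was the deeper of the enterocyte libraries, with 42.2 M against 34.6 M tags, and their lists covered nearly the same length of genome. The values of the fit below are therefore also given without each enterocyte replicate.

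Merging the peaks of the 6 libraries other than ISC gave 24 separate regions inside the window, and both ISC libraries had a peak in all 24. Both E14.5 libraries had 14 of them, both E12.5 libraries 4 and both enterocyte libraries 3. Of the 24 regions, 8 came from a single embryonic or enterocyte library. These counts describe the locus alone, without shares over the genome beside them. Regions with a peak in both libraries of a group and in neither of another were set beside all 72462 regions over the genome. Those of the genome were made the same way, and each region was counted whole where it crosses the edge of the window. Both E14.5 libraries and neither E12.5 library had 5 of the 24 regions (20.8%), against 9.83% of all regions. The reverse held for 0 of 24, against 4.96%. Both E14.5 libraries and neither enterocyte library had 5 of the 24 (20.8%), near the 22.8% of all regions. The reverse held for 0, against 8.57%.

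Inside the window 3 regions carried peaks in all 8 libraries: the start of the gene and a pair of neighbouring regions inside it. The region at the start (chr6:94644461-94651996) had 2.59 and 4.09 kb covered in enterocytes, 3.66 and 4.58 kb in the E12.5 libraries, 7.21 and 6.97 kb in the E14.5 libraries, and 7.41 and 7.54 kb in ISC. The E12.5 and enterocyte libraries overlapped here, and both lay below E14.5 and ISC.

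The large region inside the gene (chr6:94623148-94629535), centred 23.7 kb from the start, held the longest peak of each embryonic library. It had 6.39 kb covered in both ISC libraries, 6.39 and 6.02 kb in the E14.5 libraries, 3.63 and 4.68 kb in the E12.5 libraries, and 0.580 and 1.40 kb in the enterocyte libraries. Here the enterocyte libraries lay below both E12.5 libraries. By −log10 q its best peak stood at the 81.5th percentile of both E14.5 lists, the 76.7th and 82.3rd of the E12.5 lists, and the 18.9th and 39.0th of the enterocyte lists. The adjacent region (chr6:94629643-94632656) had 3.01 kb in both ISC libraries, 2.88 and 3.01 kb in the E14.5 libraries, 2.14 and 2.49 kb in the E12.5 libraries, and 1200 and 2065 bp in the enterocyte libraries.

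Farther into the gene lay regions with peaks at E14.5 and in ISC but none at E12.5. A region centred 39.95 kb from the start (chr6:94609268-94610825) had no peak in the E12.5 or enterocyte libraries, 1.47 and 0.848 kb in the E14.5 libraries, and 1.56 kb in both ISC libraries. A region at chr6:94597331-94599378 had none in the E12.5 libraries, 2.05 and 1.43 kb in the E14.5 libraries, 2.05 kb in both ISC libraries, and 0.507 kb in enterocyte replicate 2 alone. Of the remaining part of the gene, towards its end, the window from 94560001 to 94580000 had no peak in any library. The window from 94540001 to 94560000 had a single peak of 238 bp, in ISC replicate 2.

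Upstream of the gene, 3 elements of the window had peaks in both E14.5 and both ISC libraries, and other regions had peaks in fewer of these. The first (chr6:94659163-94660052) had 0.868 and 0.616 kb in the E14.5 libraries, 0.878 and 0.890 kb in the ISC libraries, 0.476 kb in E12.5 replicate 2, and none in E12.5 replicate 1 or in enterocytes. The next (chr6:94667731-94669835) had 1.97 and 1.69 kb in the E14.5 libraries, 1.90 and 2.11 kb in the ISC libraries, 0.409 kb in E12.5 replicate 2 and 0.968 kb in enterocyte replicate 2. Its best peak stood at the 85.2nd and 95.4th percentile of the ISC lists and at the 70.8th and 63.8th of the E14.5 lists.

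The outermost element crossed the upper edge of the window. Up to that edge (chr6:94679260-94680000) it had 0.741 kb in both ISC libraries, 0.741 and 0.690 kb in the E14.5 libraries, 0.670 and 0.738 kb in the E12.5 libraries, and none in enterocytes. Just past the edge both enterocyte libraries had a peak, at chr6:94680128-94680610 for replicate 1 and chr6:94680069-94680567 for replicate 2. The enterocyte peaks thus lay on the outer side of the element alone. That side also held both E14.5 summits, at 94680352 and 94680294, and a further peak of E12.5 replicate 1 (chr6:94680141-94680722). Counted past the edge, the element had a peak in every library. In ISC replicate 2 the peak over this element was 9.37 kb long, and in ISC replicate 1 4 peaks lay between 94676751 and 94685177.

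**Figure D4:**
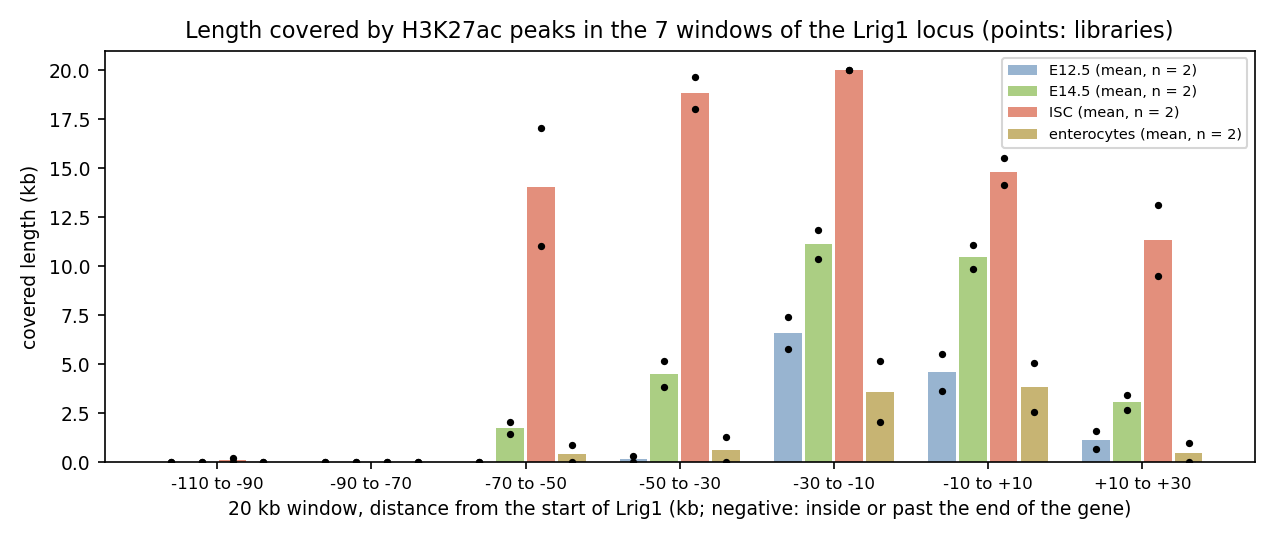
Length covered by peaks (kb) in the 7 windows of 20 kb at the Lrig1 locus, by distance from the start of the gene, as group means (bars, n = 2) with libraries as points. ISC fills its window at 10 to 30 kb inside the gene completely, with 20.0 kb, and the windows more than 70 kb inside hold almost no peak.

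Summits, the points where a peak is highest, recurred across sample groups at a few positions. Each peak has 1 summit, so a long ISC peak adds only 1. Summits were chained where each lay within 300 bp of the one before, which put the 139 summits into 76 groups. These groups spanned up to 551 bp. Of the 76, 45 held a single library, 4 held at least 5 libraries and 2 held all 4 sample groups. Among the groups with at least 5 libraries, the tightest was near the start of the gene, where the summits of both E12.5 libraries, both E14.5 libraries and enterocyte replicate 2 fell between 94649924 and 94649969, a span of 45 bp. The ISC summits lay farther into the gene, at 94649484 and 94649496, only 12 bp apart, and that of enterocyte replicate 1 lay at 94649611. At the upstream element the summits of both E14.5 and both ISC libraries lay at 94668361, 94668353, 94668365 and 94668372. The same group also held the summits of enterocyte replicate 2 at 94668486 and of E12.5 replicate 2 at 94668566, for a span of 213 bp. Summits were grouped by closeness, so short spans within a group follow from the grouping.

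Just upstream of the start, a short gap divided the marked stretch in 5 of the 8 libraries. It was 198 and 109 bp long at E12.5, 85 bp in E14.5 replicate 2 and 206 bp in enterocyte replicate 1, and in ISC replicate 1 it ran from 94650221 to 94650345. A further summit lay on its outer side, at 94650581 to 94650635 in these 5 libraries. In E14.5 replicate 1, ISC replicate 2 and enterocyte replicate 2 a single peak ran across this position. At this gap the longest peak of ISC replicate 1 ended, at 94650220, with another peak of 2179 bp beyond it.

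**Figure D5:**
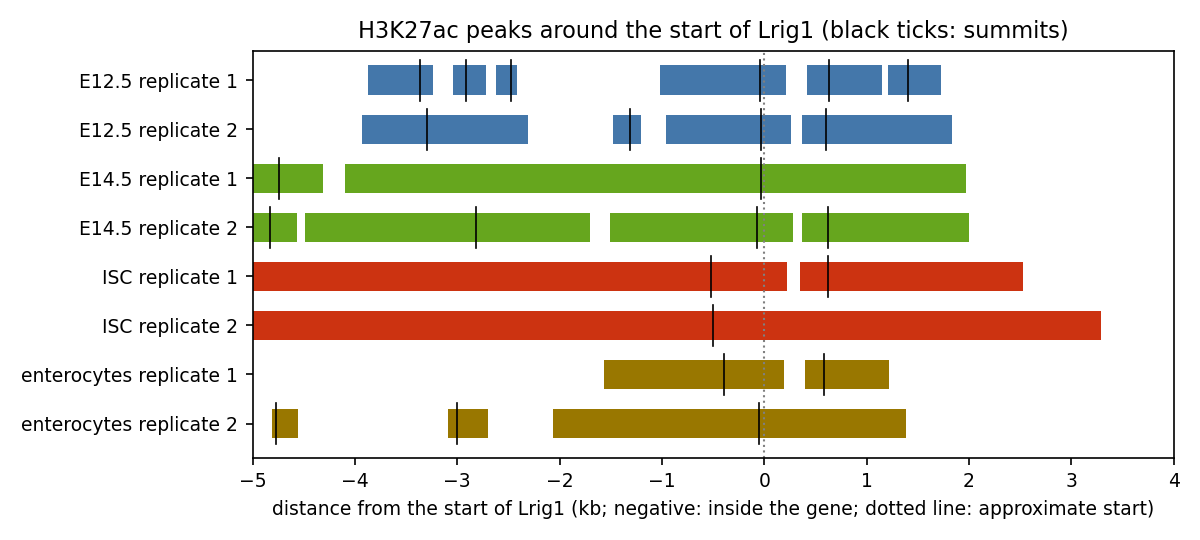
Peaks (bars) and summits (black ticks) of the 8 libraries from 5 kb inside Lrig1 to 4 kb upstream of its start (distance in kb; dotted line: approximate start). A gap of 85 to 206 bp just upstream of the start appears in 5 libraries, and the ISC summits sit to the left of most others.

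Whether the locus changed between the groups that did not choose it was tested in the 6 libraries of E12.5, E14.5 and enterocytes. Covered length was fitted with limma in windows of 20 kb over the genome, on the scale log2(scaled covered bp + 500), which understates the change of windows with few covered bases. Of the 7 windows at Lrig1, 5 had a peak in at least 2 of these libraries and were tested, among 28543 windows in all.

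From E12.5 to E14.5 the covered length was greater in both E14.5 libraries than in both E12.5 libraries in 5 of the 5 windows, as in 37.0% of all windows tested (18.5% had the reverse). None of the 5 windows passed an adjusted p of 0.05 in limma, where 15.7% of all windows were called higher and 13.0% lower. At an unadjusted p under 0.05, 3 of the 5 were higher, against 39.8% of all windows that passed in either direction. The largest change on the log2 scale, over a base near 0, was in the window from 94600001 to 94620000, which held 0 and 0.316 kb in the E12.5 libraries, 5.15 and 3.85 kb in the E14.5 libraries (log2 change 2.76, SE 0.737, limma adjusted p = 0.0527). In the window with the start of the gene, from 94640001 to 94660000, the E12.5 libraries had 3.66 and 5.52 kb, the E14.5 libraries 11.1 and 9.86 kb (log2 change 0.89, limma adjusted p = 0.0936). The spread in this fit is shared with the enterocyte libraries. In the window from 94600001 to 94620000 the log2 change was 2.81 without either enterocyte replicate. It was 2.47 and 3.02 without E12.5 replicate 1 and 2, and 2.60 and 2.83 without E14.5 replicate 1 and 2. Over the same fits the change in the window with the start of the gene ranged from 0.84 to 0.95. Each of these fits leaves 1 library in a group, which is taken to vary like the other groups.

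In enterocytes all 5 windows had less covered length than at E14.5, without overlap, as 64.6% of all windows did (17.3% had the reverse). None passed an adjusted p of 0.05 in limma, where 38.8% of all windows were called lower and 20.5% higher. At an unadjusted p under 0.05, 3 of the 5 were lower, against 63.7% of all windows in either direction. The window from 94620001 to 94640000, deep in the gene, held 11.8 and 10.4 kb at E14.5 and 2.04 and 5.15 kb in enterocytes (log2 change -1.03, SE 0.398, limma adjusted p = 0.0833). The window from 94660001 to 94680000, upstream of the gene, held 3.44 and 2.69 kb at E14.5 and 0 and 0.968 kb in enterocytes (log2 change -1.69, limma adjusted p = 0.0748). Without enterocyte replicate 2 all 5 windows were called lower (limma adjusted p of 0.00104 to 0.00342). Without enterocyte replicate 1 only 2 were, those from 94620001 to 94640000 and from 94640001 to 94660000 (limma adjusted p = 0.0256 and 0.0459). The change in the former was then -0.43 on the log2 scale, against -1.63 without replicate 2. Both comparisons use the same E14.5 libraries, so they are not independent.

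The genome was then searched for places with a like pattern over the 8 libraries. Among 5845 windows of the same length with at least 50% of the mean scaled covered length of the locus, the median correlation with Lrig1 was 0.05 (Pearson r of log2 covered length, n = 8 libraries), and 29 windows, which can overlap each other, exceeded 0.95. The highest values that did not overlap each other were 0.99 for chr19:10100001-10240000, 0.99 for chr11:57760001-57900000 and 0.99 for chr16:97840001-97980000. These correlations describe 8 points that share the depth and replicate spread of the same libraries. On chromosome 19, as mean ± SD of 2 libraries, enterocytes had 6.42 ± 2.93 kb covered, E12.5 had 9.87 ± 1.28 kb, E14.5 had 17.9 ± 1.99 kb and ISC had 36.8 ± 7.54 kb. The ISC value there was below the 79.1 kb of the Lrig1 locus.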

How the data were processed

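H3K27ac ChIP-seq peaks of 8 libraries, 2 for each of 4 groups, were analysed, with 8 input libraries as their controls. The tools named in the submitters' processing notes are Bowtie 1.1.2, SAMtools 1.2, MACS2 and bcl2fastq 1.8.4, and the build is mm9. Per the file headers, MACS 2.1.0.20140616 called narrow peaks in each library by itself, with its input as control and a q-value limit of 0.05. The deposited lists give peak length in bp, and per the file headers the pileup signal at the summit, −log10 p, −log10 q and a fold enrichment ratio are the authors' MACS output. Such scores rank or filter peaks inside 1 list alone.

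Covered length was counted inside the window, and the longest peak was taken whole. Counts of reads per region were not used here, so precision rests on 2 libraries per group. For the limma 3.58.1 fit (lmFit, then eBayes with trend and robust), covered bp in 20 kb windows of the autosomes and X were scaled by the library total, 500 bp were added, and windows were kept if at least 2 libraries had a peak, with 3 group means and Benjamini-Hochberg adjustment. The fit was tested on simulated data. ISC stayed out of it because they chose the locus. Region, summit and base overlaps carry no test. The likeness search took the 3 windows with the highest correlation, of the length of the locus and not overlapping. The locus, the windows and the lists were chosen with earlier results of these data known. The planned values for ErbB pathway and marker genes are not given, because the RefSeq table is on GRCm38.p6 and coordinates were not converted. The alternatives were a stricter peak threshold, equal peak numbers, other scalings, pseudocounts and filters, a replicate block and leaving out each library. Analyses ran in Python 3.11.15 and R 4.3.3.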

Additional observations from a re-analysis of the deposited data

How the results depend on the processing

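ISC had the greatest covered length and the longest peak under every alternative run. The locus was chosen for its peak length in ISC, so this order is a description and not a test. The stricter threshold and equal peak numbers left the longest peak of every library as it was, so its order could not differ there. Peaks with −log10 q of at least 10 lowered the E14.5 covered length to 24.6 kb and left means of 6 summits at E12.5 and 9.5 at E14.5. Equal peak numbers left 9 summits in each E12.5 library, and 13 and 16 in the E14.5 libraries, a mean that rounds to 15. The gene span alone gave 25.2 kb covered at E14.5 and 63.0 kb in ISC, and scaling gave 68.4 kb in ISC. Joining peaks within 1 kb made the longest stretch 7.72 kb at E12.5, 12.0 kb at E14.5, 4.49 kb in enterocytes and 64.3 kb in ISC. A window extended upstream by 20 kb, added after seeing the data, moved no group mean by more than 1 SD.

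In both comparisons all 69 alternative values of the tested windows kept their direction. The filters by number of libraries and the replicate block leave the log2 change of a window as in the main fit. For these the direction could not differ. With every library kept, the limma adjusted p for E14.5 against E12.5 was under 0.05 in 9 values and not in 30. For enterocytes against E14.5 it was under 0.05 in 11 values and not in 28. For E14.5 against E12.5, the Lrig1 windows called higher numbered 1 with 2000 bp added, 2 without scaling, 1 with peaks in at least 3 libraries, 2 at −log10 q of at least 10, 2 with all 8 libraries, and 0 to 5 with a library left out. For enterocytes the windows called lower numbered 2 with 2000 bp added, 4 without scaling, 2 with peaks in at least 3 libraries, 2 at −log10 q of at least 10, 1 with all 8 libraries, and 0 to 5 with a library left out. The cause of these differences was not tested, and the stricter filters also left fewer windows in the fit.

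Over the genome, windows called for E14.5 against E12.5 numbered 4489 higher and 3698 lower. They numbered 4281 higher and 2100 lower without scaling, 2989 higher and 2024 lower with peaks in at least 3 libraries, and 2591 higher and 1547 lower at −log10 q of at least 10. With a library left out they ranged from 800 to 4551 higher and 1177 to 3320 lower. Falling windows outnumbered rising ones without E14.5 replicate 1 (972 higher, 1752 lower) and without E14.5 replicate 2 (800 higher, 1177 lower). For enterocytes 5853 were higher and 11061 lower. They numbered 3360 higher without scaling, with 14272 lower, and 6947 lower at −log10 q of at least 10. With a library left out they ranged from 3764 to 5934 higher and 6821 to 11128 lower. With the replicate block, 1 Lrig1 window was higher at E14.5 (log2 change 2.76, limma adjusted p = 0.0481) and 0 were lower in enterocytes, with 3895 higher and 2919 lower, and 5481 higher and 10590 lower, over the genome. Nothing in the labels pairs the numbers, and deviations of same-numbered libraries correlated at -0.18 to 0.17 between groups.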
